A study of Homo sapiens with 10 samples.

Results

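The 86 cytosolic ribosomal protein genes, of 19974 protein-coding genes on chromosomes 1-22 and X, were followed through 6 ChIP-seq peak lists. A gene was a member when its symbol begins with RPL or RPS, RPSA and RPLP0 to RPLP2 included, and symbols beginning RPS6K, RPS19BP1 and symbols with a hyphen were left out. The rule uses names only, and it gave 53 genes of the large subunit and 33 of the small subunit. The measured quantity was a summit, the highest point of a listed peak, within 1 kb of either end of the gene (build hg38).

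ChIP-seq recovers the DNA that an immunoprecipitated protein was fixed to. All libraries came from 22RV1, an established human prostate cancer cell line grown with 10% serum, fixed for 10 min in 1% formaldehyde and, per the labels, transfected or infected. The antibody is not named in the labels, while the series title concerns TRIM24, a reader of histone marks that acts with nuclear receptors, and the RB residues S249 and T252. RB is the tumour suppressor encoded by RB1. The 6 groups, in the order used for all values below, were cells with control siRNA, cells with RB1 siRNA, the empty vector EV(245-255), the plasmid HA-RB(245-255) with HA-tagged RB residues 245 to 255, the empty vector EV(RBN), and the plasmid HA-RBN, whose HA-tagged insert the labels name RBN without its residues. The labels call HA-RB(245-255) a control group in one field, and its title was followed. Each group was 1 library, so no difference between groups has a replicate check and no p-value was computed. The 4 IgG libraries, mock immunoprecipitations that partner the first 4 groups, were not analysed here.

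Ribosomal proteins build the small subunit, which decodes the mRNA, and the large subunit, which joins amino acids. Their genes are transcribed by RNA polymerase II at high rates, and their mRNAs typically begin with a C followed by a run of pyrimidines, the TOP motif (terminal oligopyrimidine), through which mTORC1 controls their translation. RPS6 is the classical substrate of the S6 kinases downstream of mTORC1. Many of these genes also carry small nucleolar RNAs (snoRNAs) in their introns, and here 29 members held 60 annotated snoRNAs.

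The start regions of 7 members are printed because summits described below lay on or just before them. They also show sequence features that are each found in part of the set. Each run holds 220 bases before and 20 bases from the start on, 5′ to 3′ on the gene's own strand, from RefSeq (GRCh38.p14). Capitals mark the unbroken pyrimidine run at the start, matches of the ETS motif CCGGAAG on either strand, and a 10-base palindrome with CGCG at its centre.
RPS6, chr9:19380217-19380456 (minus strand): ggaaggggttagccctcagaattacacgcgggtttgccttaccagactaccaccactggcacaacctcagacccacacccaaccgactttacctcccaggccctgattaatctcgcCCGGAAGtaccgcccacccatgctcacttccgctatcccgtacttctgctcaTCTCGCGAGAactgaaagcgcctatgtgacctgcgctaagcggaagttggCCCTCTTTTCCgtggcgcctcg
RPS19, chr19:41860035-41860274 (plus strand): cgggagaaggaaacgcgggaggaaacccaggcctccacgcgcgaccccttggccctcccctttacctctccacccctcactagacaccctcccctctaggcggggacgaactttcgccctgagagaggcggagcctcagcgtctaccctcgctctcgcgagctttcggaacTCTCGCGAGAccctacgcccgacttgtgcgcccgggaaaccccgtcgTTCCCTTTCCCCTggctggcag
RPS16, chr19:39435930-39436169 (minus strand): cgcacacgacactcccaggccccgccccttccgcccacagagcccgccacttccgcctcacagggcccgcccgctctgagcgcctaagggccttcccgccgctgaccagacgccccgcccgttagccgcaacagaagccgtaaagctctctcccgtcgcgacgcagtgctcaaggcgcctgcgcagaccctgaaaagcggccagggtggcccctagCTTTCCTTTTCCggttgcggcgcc
RPS3A, chr4:151099408-151099647 (plus strand): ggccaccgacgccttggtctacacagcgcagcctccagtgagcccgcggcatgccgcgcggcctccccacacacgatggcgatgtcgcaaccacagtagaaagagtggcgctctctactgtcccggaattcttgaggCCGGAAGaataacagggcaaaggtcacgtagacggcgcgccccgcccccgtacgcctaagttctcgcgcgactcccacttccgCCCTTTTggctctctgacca
RPS14, chr5:150449720-150449959 (minus strand): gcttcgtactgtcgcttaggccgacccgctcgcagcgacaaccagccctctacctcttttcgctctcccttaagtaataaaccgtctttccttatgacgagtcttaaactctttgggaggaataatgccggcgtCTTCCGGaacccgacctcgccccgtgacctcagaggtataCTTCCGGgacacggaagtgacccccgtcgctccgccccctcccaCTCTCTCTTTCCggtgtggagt
RPL26, chr17:8383174-8383413 (minus strand): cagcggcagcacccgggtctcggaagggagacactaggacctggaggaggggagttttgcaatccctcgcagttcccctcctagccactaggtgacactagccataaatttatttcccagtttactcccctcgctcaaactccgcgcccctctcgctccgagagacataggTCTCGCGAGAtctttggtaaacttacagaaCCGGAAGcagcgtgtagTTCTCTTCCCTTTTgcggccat
RPLP2, chr11:809747-809986 (plus strand): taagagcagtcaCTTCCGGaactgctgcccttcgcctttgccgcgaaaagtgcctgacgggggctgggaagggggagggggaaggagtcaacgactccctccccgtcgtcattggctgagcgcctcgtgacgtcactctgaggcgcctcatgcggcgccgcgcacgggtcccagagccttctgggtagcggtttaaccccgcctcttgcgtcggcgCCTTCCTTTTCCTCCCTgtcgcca

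RPS6, RPS19 and RPL26 carry the palindrome, RPS14 carries the ETS motif at a pair of places, RPS16 and RPS3A had summits within a few bases of each other in several libraries, and RPLP2 has a pyrimidine run of 17 bases.

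The pyrimidine start was the clearest sequence feature of the members. RefSeq promoters of 300 bases, 250 before and 50 from the start on, matched 69 of the 86 members and 15812 genes in all. The other 17 members had no entry. The promoter start lay away from the gene end in RPL6 (7393 bp), RPL26L1 (4635 bp), RPSA2 (4508 bp) and RPL27 (146 bp). The start base was C in 48 of the 69 (69.6%), against 11.3% of all promoters. A run of 8 or more pyrimidines, at most 3 bases from the start, was found in 46 (66.7%) against 9.74%, and the median run was 10 bases against 3. Base composition differed less, with a median GC content of 59.3% against 62.7% and a median of 23 CpG dinucleotides against 22.

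Of the motifs searched on both strands of the same window, ETS (CCGGAAG) was present in 23 of 69 member promoters, or 33.3% (exact 95% interval 22.4 to 45.7), against 14.1% of all. The 10-base palindrome, in capitals in RPS6, RPS19 and RPL26, was present in 4 members (5.80%, 1.60 to 14.2) against 0.670%. Its first base lay at −52 in RPS6, −49 in RPL26, −49 in RPS19 and −65 in RPL17, counted from the start. YY1 (AAGATGGC) was present in 10.1% (4.18 to 19.8) against 3.86%.

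In this window the other motifs had shares near those of all promoters. The SP motif (GGGCGG) was in 55.1% against 58.3%, and NFY (CCAAT) in 36.2% against 36.4%. The core of the TATA box, TATAAA, was in 10.1% against 9.75%. The E2F motif (TTTCCCGC, TTTGGCGC or TTTCGCGC) was in 4.35% against 3.77%, NRF1 in 1.45% against 1.77%, and the nuclear receptor half-site (AGGTCA) in 14.5% against 11.8%. In the last 100 bases before the start, TATAAA was in 10.1% (4.18 to 19.8) against 5.58%, and the half-site in 10.1% (4.18 to 19.8) against 4.17%. Each motif was counted on its own, also where matches of different motifs overlap. A match is a description of letters and does not show a bound site.

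**Figure D1:**
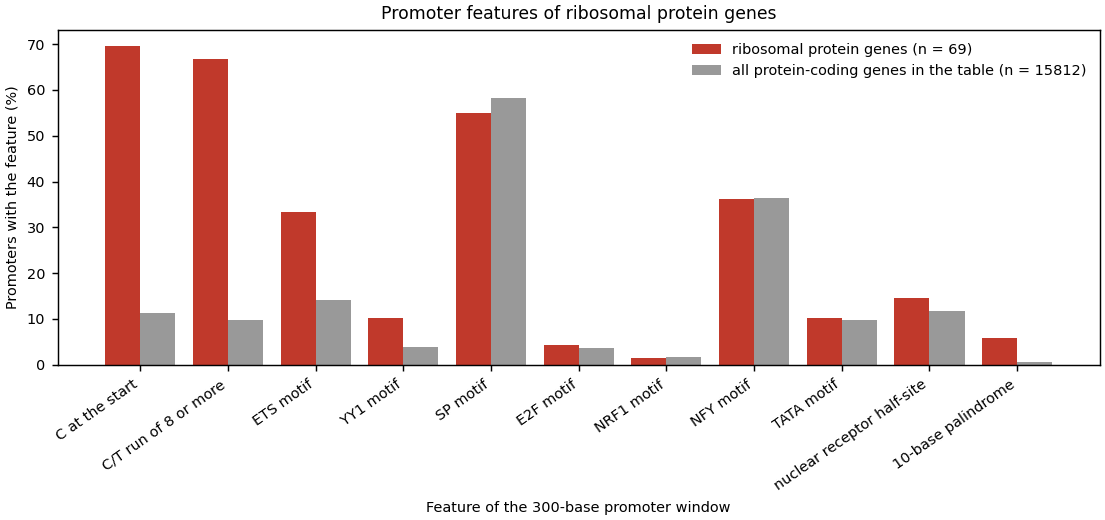
Share of promoters (%) with each feature of the 300-base window, for 69 ribosomal protein genes (red) and 15812 protein-coding genes (grey). The start base C (69.6% against 11.3%) and the pyrimidine run (66.7% against 9.74%) stand furthest apart, then the ETS motif (33.3% against 14.1%), and the SP and NFY bars are close.

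A summit at a gene end was more frequent among the members than among all genes in every library. With the control siRNA 36 of 86 had one, or 41.9% (31.3 to 53.0), where 28.1% of all genes did. With RB1 siRNA it was 35, or 40.7% (30.2 to 51.8), against 33.6%, and that interval holds the value of all genes. EV(245-255) had 50, or 58.1% (47.0 to 68.7), against 45.5%. HA-RB(245-255) had 51, or 59.3% (48.2 to 69.8), against 45.6%. EV(RBN) had 79, or 91.9% (83.9 to 96.7), against 60.2%, and HA-RBN had 84, or 97.7% (91.9 to 99.7), against 73.4%. These exact intervals cover counting error only.

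The shares cannot be ranked between libraries as binding. An interval in a deposited list has 1 summit, and the lists with an IgG partner had wide intervals. The median interval holding a member's summit was 131308, 68401, 32793.5 and 31087 bp wide in those 4 lists, and 821 and 1050 bp in EV(RBN) and HA-RBN. Of the members with no gene end summit, 49 of 50, 50 of 51, 36 of 36 and 34 of 35 had such an interval over the gene or within 1 kb of it, with the summit elsewhere. The interval widths of those 4 lists sum to 2890.5, 2862.3, 2897.8 and 2810.7 Mb, against 84.4 and 150.4 Mb in EV(RBN) and HA-RBN. Most genes of any kind would lie in such an interval, so these counts say nothing about binding. The share over all genes was not computed. A missing summit does not show that a gene is unbound.

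The member summits were weak by the authors' own scale in the 4 lists with an IgG partner. Their highest −log10 q was 0.607, 2.58, 1.72 and 3.69, and their median fold enrichment was 1.45, 1.53, 1.59 and 1.64. In EV(RBN) and HA-RBN the highest −log10 q was 39.9 and 73.1 and the median fold enrichment 4.37 and 5.23. Both scales are the authors', and depend on the background used for each list.

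Strength was therefore taken as DNA fragments stacked at the summit, recovered from the authors' fold enrichment and −log10 p. Summits of at least 20 fragments were present at 30 members with the control siRNA (34.9%, against 17.1% of all genes), at 28 with RB1 siRNA (32.6% against 21.5%), at 18 for EV(245-255) (20.9% against 13.2%), at 16 for HA-RB(245-255) (18.6% against 12.9%), at 8 for EV(RBN) (9.30% against 2.84%) and at 38 for HA-RBN (44.2% against 18.5%). The median member summit held 28, 31, 14, 13, 8 and 18.5 fragments in library order, and the median over all genes with a summit was 25, 28, 12, 11, 5 and 10. The background, an index of depth, was 0.413, 0.539, 0.187, 0.2499, 0.367 and 0.634 fragments per base. Divided by it, the median enrichment of the members was 67.8, 57.5, 74.7, 52.02, 21.8 and 29.2, against 60.5, 51.98, 64.0, 44.0, 13.6 and 15.8 for all genes.

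At a higher minimum the members no longer stood above all genes in every library. Summits of at least 40 fragments were at 9 members with the control siRNA (all genes 8.88%) and 9 with RB1 siRNA (12.02%). EV(245-255) had 1 (4.10%), HA-RB(245-255) 2 (3.89%), EV(RBN) 1 (0.355%) and HA-RBN 10 (5.998%). The highest member in any library had 193 fragments, with RB1 siRNA, where the highest gene end of all had 1061. With the control siRNA these maxima were 149 and 1400.

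**Figure D2:**
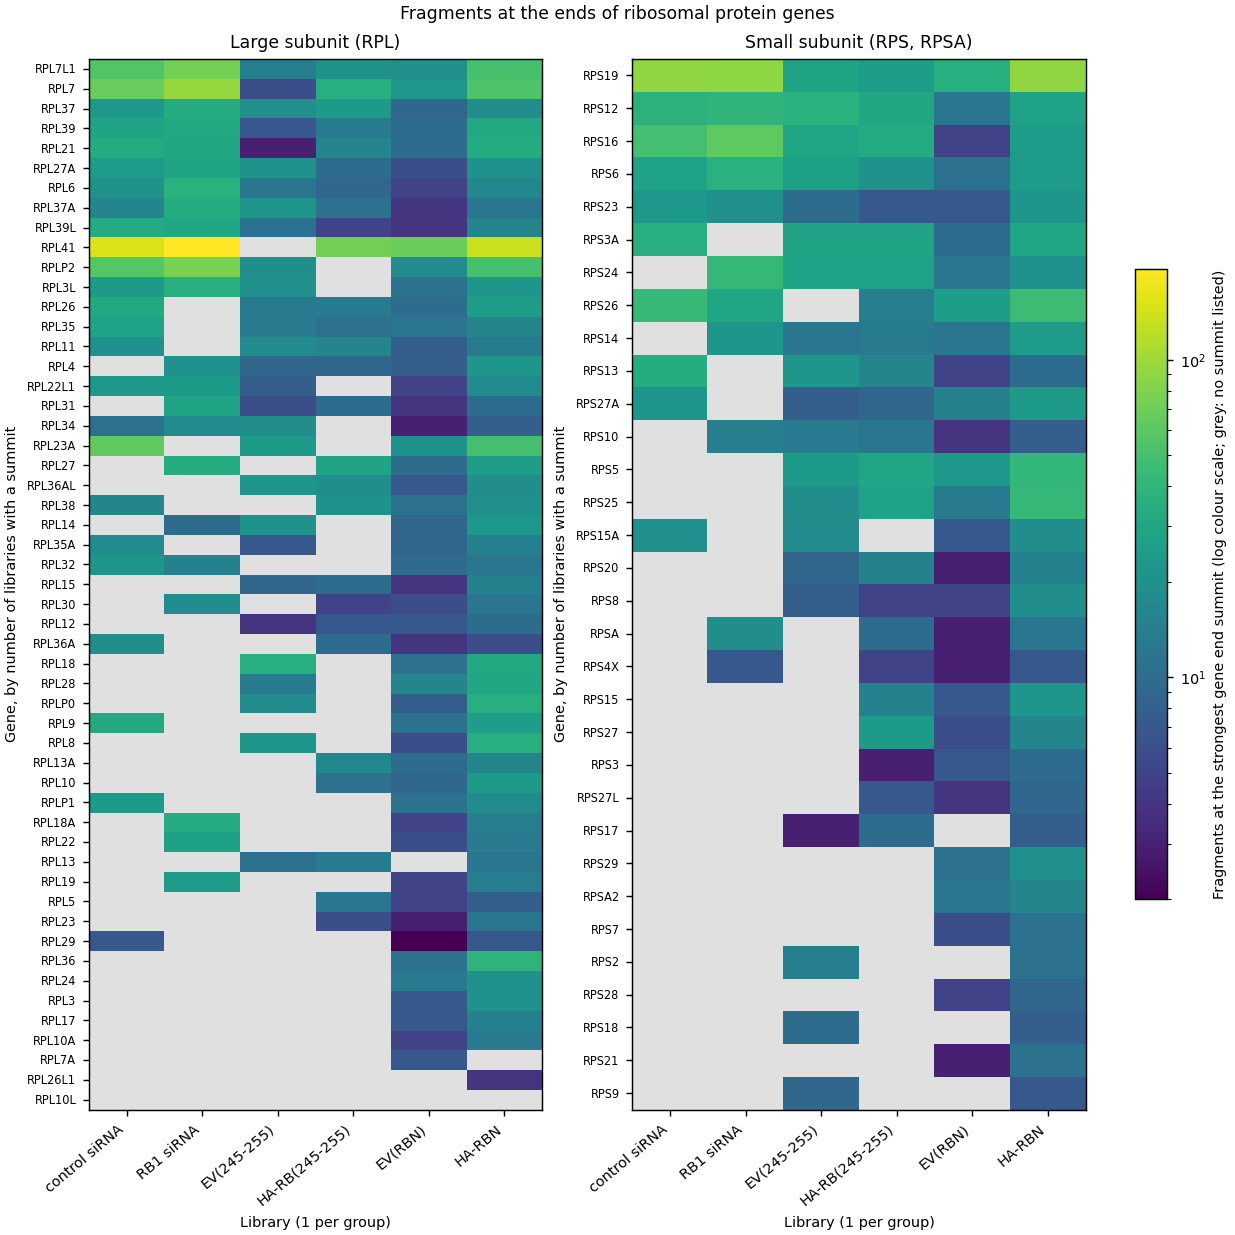
Fragments at the strongest gene end summit (log colour scale) of each ribosomal protein gene, in rows, in the 6 libraries, in columns, with the large subunit on the left and the small subunit on the right. Grey cells have no listed summit. 1 gene is not drawn. RPL41 and RPS19 are among the brightest rows, and the RBN columns are nearly filled, with 79 and 84 of 86 members.

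Across libraries, 15 members had a summit in all 6, 17 in 5, 18 in 4, 20 in 3, 13 in 2, 2 in 1 and 1 in none. Of all genes 13.1% had one in all 6 and 14.05% in none, against 17.4% and 1.16% of the members. Among the 15 were RPL6, RPL7, RPL21, RPL37, RPL39, RPS6, RPS12, RPS19 and RPS23.

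Among small subunit genes, RPS19 (chr19:41860255-41872925), the gene most often mutated in Diamond-Blackfan anaemia, had 90, 88, 29, 26, 35 and 90 fragments. The fragments gave enrichments of 218, 163, 155, 104, 95.5 and 142. Its summits were spread, from −162 to −543 bp from the start.

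RPS6 (chr9:19375715-19380236) had 28, 37, 27, 21, 11 and 25 fragments. Its summits lay at −136, −88, −112, −156, −156 and −229 bp from the start, 5 of them within the printed stretch. The enrichment of RPS6 was 67.8, 68.7, 144, 84.0, 30.01 and 39.4, equal to the member median with the control siRNA and above it in the other 5 libraries.

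RPS16 (chr19:39433137-39435949) had 49, 62, 30, 33, 5 and 25 fragments. Its summits lay at −136, −132, −133 and −131 in the first 4 libraries, and at −104 and −48 in EV(RBN) and HA-RBN. RPS12 had 38, 40, 37, 31, 12 and 28 fragments, and RPS23, a protein of the decoding centre, 23, 20, 10, 7, 7 and 22. The RPS23 summit lay at −55 or −56 in 4 libraries.

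Of the small subunit genes mutated in Diamond-Blackfan anaemia, RPS24 and RPS26 were each listed in 5 libraries. RPS24 had no control siRNA summit and 42, 28, 28, 12 and 21 fragments in the others. RPS26 had 43 and 30 fragments with the siRNAs, none listed in EV(245-255), and 14, 26 and 46 in the rest. Each value was above the member median of its library, except that of RPS26 with RB1 siRNA. RPS7, RPS28 and RPS29 had summits in the RBN pair only, of 6 and 11, 5 and 9, and 11 and 20 fragments.

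RPS3A had 35 fragments with the control siRNA, no summit with RB1 siRNA, and 29, 29, 10 and 30 in the rest. The RPS3A summit lay at −198 in EV(245-255), HA-RB(245-255) and HA-RBN and at −203 with the control siRNA, inside the printed stretch. RPS14, the gene lost in the 5q− syndrome, had no control siRNA summit and 22, 12, 13, 12 and 25 fragments in the others. RPSA, which also codes for the laminin receptor precursor, had 19 fragments with RB1 siRNA, 10 in HA-RB(245-255), and 3 and 12 in the RBN pair.

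Among large subunit genes RPL41 (chr12:56116633-56117967), which codes for one of the shortest proteins known, had the highest single value of any member, 193 fragments with RB1 siRNA. It had 149 with the control siRNA, 193 with RB1 siRNA, none listed for EV(245-255), 73 for HA-RB(245-255), 69 for EV(RBN) and 133 for HA-RBN. These were not all 1 site. The summit lay before the start with the control siRNA (−256) and in the RBN pair (−139 and −140). With RB1 siRNA and in HA-RB(245-255) it lay 1556 bp past the start, beyond the other end of the gene and within 1 kb of an end of ZC3H10. In EV(245-255) the gene lay in an interval whose summit, of 78 fragments, was 10191 bp away.

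RPL7 had 67, 93, 6, 35, 23 and 55 fragments, all within 1 kb of an end of RDH10 as well, and RPL7L1, a paralog of RPL7, had 56, 73, 14, 21, 20 and 51. The RPL7L1 summit of EV(245-255) was at the other end of the gene, 11282 bp past the start. RPL23A, a protein at the exit of the peptide tunnel, had 63, 24, 21 and 50 fragments with the control siRNA, in EV(245-255), EV(RBN) and HA-RBN. RPL39, another protein of the tunnel exit, had 29, 32, 7, 13, 10 and 32. The 6 summits of RPL39 lay within 46 bp, from −263 to −309.

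The stalk proteins RPLP0, RPLP1 and RPLP2 recruit the elongation factors. RPLP2 (chr11:809967-812876) had 58, 77 and 19 fragments in the first 3 libraries, none listed in HA-RB(245-255), and 18 and 51 in the RBN pair. All 5 RPLP2 summits were within 1 kb of an end of PIDD1 as well. RPLP0 had 18 fragments in EV(245-255), 8 in EV(RBN) and 35 in HA-RBN, and RPLP1 had 24 with the control siRNA and 11 and 18 in the RBN pair.

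RPL5, RPL11 and RPL23 can bind MDM2, the ubiquitin ligase of p53, when ribosome assembly fails. RPL11 had 20, 18, 16, 8 and 13 fragments in every library but RB1 siRNA. RPL5 had 12, 5 and 8 in HA-RB(245-255), EV(RBN) and HA-RBN, and RPL23 had 6, 3 and 12 in the same libraries. None of the 3 reached 20 fragments apart from RPL11 with the control siRNA.

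The 8 paralogs among the members ranged from a summit in no library to a summit in all 6. RPL10L, an intronless testis paralog of RPL10, had no summit in any library, and RPL26L1 had 1 of 4 fragments, in HA-RBN. RPL39L, a paralog of RPL39 known from male germ cells, had 33, 31, 11, 5, 4 and 16. RPL3L, the muscle paralog of RPL3, had 24, 35, 20, 11 and 22 in every library but HA-RB(245-255), though each of those summits was within 1 kb of an end of MSRB1. RPL7A, which is no paralog, had 1 summit of 7 fragments, in EV(RBN), near an end of MED22.

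Many summits could not be assigned to 1 gene. The summit was also within 1 kb of an end of another protein-coding gene for 8 of 36 members with the control siRNA, 6 of 35 with RB1 siRNA, 14 of 50, 12 of 51, 23 of 79 and 21 of 84 in the other libraries. These are 22.2%, 17.1%, 28%, 23.5%, 29.1% and 25%, against 28.3%, 25.7%, 25.8%, 25.7%, 26.3% and 23.8% of all gene end summits. Examples were PTPN11 at RPL6 in 6 libraries, CLHC1 at RPS27A and ARPC5L at RPL35 in 5, and TRAPPC4 at RPS25 and BTK at RPL36A in 4. Such a summit cannot be assigned to the ribosomal gene or its neighbour.

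The summits lay mostly before the start. Strand was known for the 69 members in the promoter table. Of those with a summit, 28 of 29, 24 of 28, 32 of 37, 38 of 40, 60 of 64 and 63 of 67 had it at the start end. These shares were 96.6%, 85.7%, 86.5%, 95%, 93.8% and 94.0%, against 95.4%, 95.4%, 90.7%, 90.6%, 82.4% and 85.9% of all genes, so the members stood lower with RB1 siRNA and in EV(245-255). The median position was −136.5, −57.5, −130.5, −84.5, −147.5 and −109 bp for the members, and −46, −41, −59, −52, −66 and −1 bp for all genes. The share before the start was 82.1%, 70.8%, 87.5%, 73.7%, 71.7% and 63.5%, against 57.2%, 57.6%, 63.9%, 61.3%, 56.1% and 50.01%.

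Leaving out summits near another gene, the median position was −136, −57.5, −130.5, −91, −162 and −82.5 bp. Among the 15 members seen in all 6 libraries, the summits of 7 lay within 250 bp of each other and those of 2 were over 1000 bp apart, which were RPL27A and RPL7L1. RPL27A, unlike most members, had its summit near its far end in 5 libraries, from 6141 to 6268 bp past the start.

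**Figure D3:**
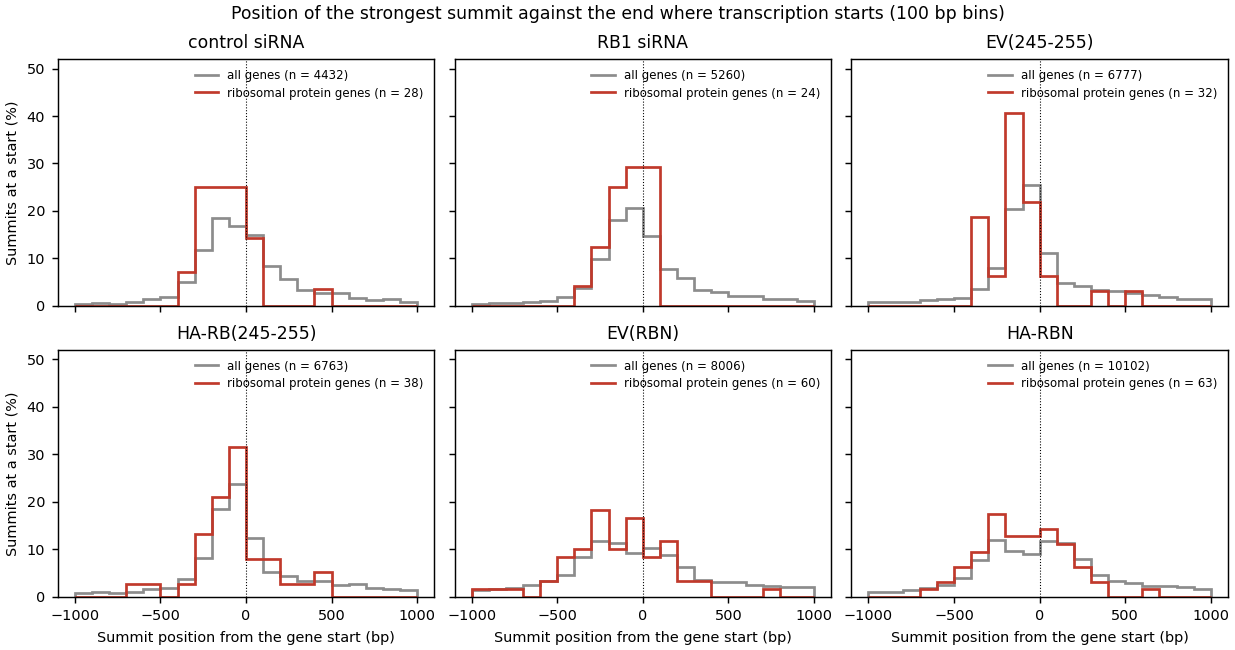
Position of the strongest summit from the gene start (bp, 100 bp bins) as a share of summits at a start (%), for ribosomal protein genes (red) and all genes (grey), in the 6 libraries. The red medians, from −57.5 to −147.5 bp, lie further before the start than the grey medians in each library.

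Members with the ETS motif had a summit in a larger share than members without it in all 6 libraries, with exact 95% intervals that overlapped in each. The 23 with the motif had one in 47.8%, 47.8%, 65.2%, 60.9%, 95.7% and 100%, and the 46 without it in 39.1%, 37.0%, 47.8%, 56.5%, 91.3% and 95.7%. The stacks gave no one direction, with medians of 25, 25, 18, 13, 9 and 16 fragments against 28.5, 32, 12.5, 13.5, 8 and 18.5. Of the 4 members with the palindrome, 3, 2, 3, 3, 4 and 4 had a summit, and RPL17 had none outside the RBN pair. The nuclear receptor half-site went the same way, with intervals that also overlapped in each library. The 10 members with it had a summit in 60%, 60%, 70%, 90%, 100% and 100%. The 59 without it had one in 39.0%, 37.3%, 50.8%, 52.5%, 91.5% and 96.6%. Among the 10, the promoter start of RPL6 lay 7393 bp from the gene end where summits were scored, and that of RPL27 146 bp. The NFY and TATA motifs went the other way in all 6 libraries, again with overlapping intervals. The 25 members with NFY had a summit in 36%, 40%, 44%, 40%, 88% and 96%. The 44 without it had one in 45.5%, 40.9%, 59.1%, 68.2%, 95.5% and 97.7%. The 7 members with TATAAA had one in 14.3%, 14.3%, 28.6%, 14.3%, 85.7% and 71.4%. The 62 without it had one in 45.2%, 43.5%, 56.5%, 62.9%, 93.5% and 100%. For SP and YY1 the direction differed between libraries. The E2F motif was in 3 members, too few for a comparison. Of these 0, 0, 0, 0, 3 and 2 had a summit, where the 66 without it had one in 43.9%, 42.4%, 56.1%, 60.6%, 92.4% and 98.5%.

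Host genes of snoRNAs resembled the rest. The 29 hosts had a summit in 11, 12, 17, 20, 27 and 28, or 37.9%, 41.4%, 58.6%, 69.0%, 93.1% and 96.6%. The 57 others had 43.9%, 40.4%, 57.9%, 54.4%, 91.2% and 98.2%. The exact 95% intervals of the groups overlapped in every library. Small subunit genes had a summit in 33.3%, 36.4%, 63.6%, 72.7%, 87.9% and 100%, and large subunit genes in 47.2%, 43.4%, 54.7%, 50.9%, 94.3% and 96.2%.

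Other genes of protein synthesis were compared by lists. In HA-RBN, summits of at least 20 fragments were at 44.2% of the members (33.5 to 55.3), 60% of 25 TOP mRNA genes outside the ribosome (38.7 to 78.9), 32% of 50 ribosome biogenesis genes (19.5 to 46.7), 32.5% of 77 mitochondrial ribosomal protein genes (22.2 to 44.1) and 37.5% of 40 proteasome genes (22.7 to 54.2). These intervals overlap. With the control siRNA the shares were 34.9%, 36%, 22%, 18.2% and 20%.

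The TOP mRNA genes, which include elongation and initiation factors, had the higher stacks. Their median summit held 50, 82.5, 26, 30.5, 9 and 26 fragments, where the members had 28, 31, 14, 13, 8 and 18.5. For mitochondrial ribosomal protein genes, whose products form the ribosome of another compartment, it was 22.5, 25, 12, 13, 6 and 13. In EV(RBN) any summit was found at 91.9% of the members, 88%, 88%, 88.3% and 87.5% of the 4 lists in the same order, so a high share there was not a property of the members alone.

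**Figure D4:**
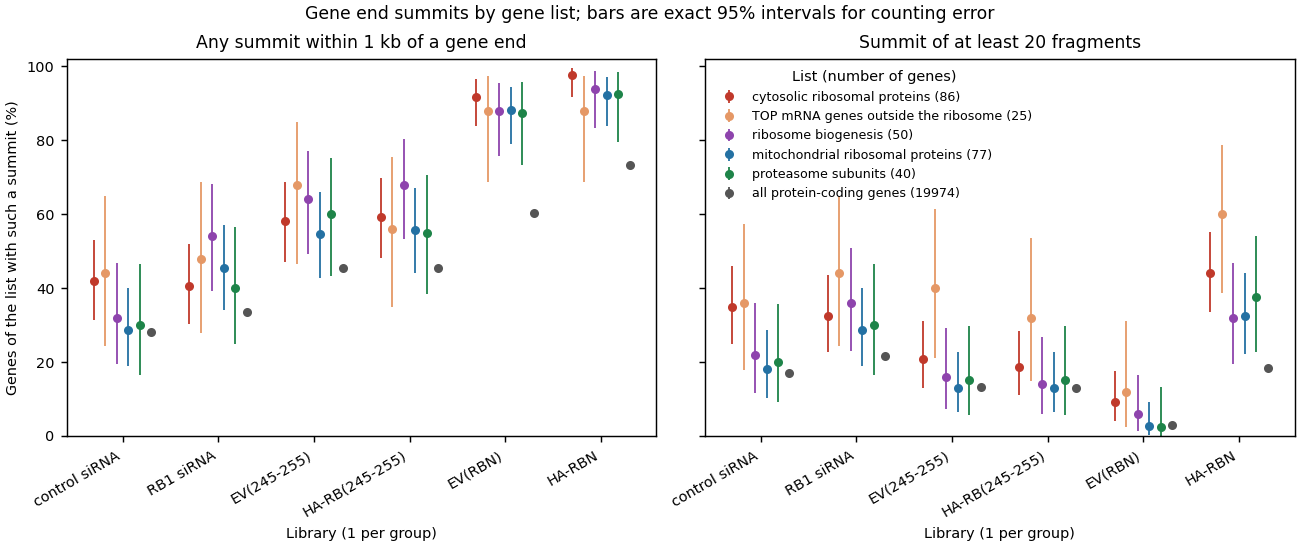
Share of each gene list (%) with a gene end summit (left) or one of at least 20 fragments (right) in the 6 libraries, with exact 95% intervals for counting error. The members (red) lie above all genes (grey) in each library, and their intervals overlap those of the other lists.

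Pairs were compared at gene ends with a summit in both libraries at most 500 bp apart and at least 20 fragments together. The log2 ratio of enrichments was set relative to the median over all such sites, which was −0.12 in the siRNA pair, −0.48 in the 245-255 pair and 0.68 in the RBN pair. Values are given with exact 95% counting intervals.

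The siRNA pair asks what depletion of RB1 does to binding. Of 21 shared members 11 were higher and 10 lower than the median shared gene end (52.4% above, 49.6% of all), and the member median was 0.03. None reached 1 log2 unit in either direction, which 1.52% of all shared gene ends did upward and 0.734% downward. RPS26 had 30 fragments with RB1 siRNA and 43 with the control siRNA, at −0.78 (−1.51 to −0.08). It was the only member whose interval left out 0, below which 3.95% of all intervals lay. Above 0 lay 2.74% of all intervals and no member's.

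RPL32 had 15 against 22 fragments, at −0.82 (−1.87 to 0.20). At the other end, RPL37A had 34 against 16, at 0.82 (−0.07 to 1.78), and RPL6 37 against 21, at 0.55 (−0.26 to 1.40). Of the members with more fragments, RPL7 stood at 0.21 (−0.26 to 0.69), RPS19 at −0.30 (−0.74 to 0.14) and RPS6 at 0.14 (−0.61 to 0.90). RPS24 had a summit with RB1 siRNA and no control siRNA interval within 1 kb of either end (all genes 0.18%), and no member stood the other way round (all genes 0.0951%). The control siRNA list had an interval further inside RPS24, with a summit of 4 fragments. Counted by summits alone, 13 members were listed with RB1 siRNA only (all genes 13.6%) and 14 with the control siRNA only (all genes 8.17%).

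The 245-255 pair asks whether the short RB stretch with S249 and T252 alters binding. Of 21 shared members 11 lay above and 10 below (52.4% above, 50.9% of all), with a median of 0.06. RPL27A had 10 fragments with HA-RB(245-255) against 21, at −1.01 (−2.26 to 0.14), the only member past 1 log2 unit, where 2.09% of all lay as low. None reached 1 upward, as 1.86% of all did.

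RPL37A had 11 against 22 fragments, at −0.94 (−2.13 to 0.17), on the other side of 0 from its value in the siRNA pair. RPL39 had 13 against 7, at 0.95 (−0.48 to 2.52), and RPS20 15 against 9, at 0.80 (−0.49 to 2.172). RPS6, with 21 against 27, stood at −0.30 (−1.20 to 0.58). Every member interval in this pair held 0, where 1.93% of all lay above and 2.04% below. RPLP2 was listed with the empty vector only (all genes 0.215%), and no member with HA-RB(245-255) only (all genes 0.165%). By summits alone the counts were 15 (all genes 14.1%) and 16 (all genes 14.2%).

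The RBN pair asks what the RBN insert does to binding, and had the most shared members. Of 49, 15 were higher and 34 lower than that median (30.6% above, 50% of all), and the member median was −0.12. Of the other lists, ribosome biogenesis had 8 higher and 16 lower (median −0.26), mitochondrial ribosomal proteins 16 and 16 with 0.00, TOP mRNA genes 8 and 10 with −0.02, and proteasome genes 9 and 8 with 0.11. Without the centring all values rise by 0.68, and 40 members lie above 0 and 9 below, with a median of 0.56.

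Past −1 lay RPL32, at −1.21 (−2.55 to 0.16), and RPL35 and RPSA2, both with 16 against 12 fragments, at −1.06 (−2.23 to 0.15). Of all shared gene ends 3.05% lay as low, and 4.56% reached 1 upward, which no member did. RPL35 and RPSA2 share their summits with ARPC5L and ZNF681. RPL41, with 133 fragments against 69, had −0.53 (−0.96 to −0.09), the only member interval without 0, where 1.91% of all lay below and 2.24% above.

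The highest were RPS16, with 25 against 5, at 0.85 (−0.56 to 2.59), and RPLP0, with 35 against 8, at 0.66 (−0.48 to 1.97). RPS19 had 90 against 35, at −0.11 (−0.69 to 0.50), and RPS6 25 against 11, at −0.29 (−1.36 to 0.88). RPL13, RPL26L1, RPS9 and RPS18 had an HA-RBN summit, of 12, 4, 7 and 8 fragments, and no EV(RBN) interval within 1 kb of either end (all genes 17.4%). No member stood the other way round (all genes 4.59%). The HA-RBN summits of RPL13 and RPS9 lay at −177 and −414 bp from the start. Those of RPL26L1 and RPS18 lay near the far end, 14734 and 5289 bp past the start. The RPS18 summit was within 1 kb of an end of B3GALT4 as well. Further inside the gene, EV(RBN) had intervals in RPL13, with a summit of 9 fragments, and in RPL26L1, with 7. By summits alone 6 members were in HA-RBN only (all genes 20.4%) and 1, RPL7A, in EV(RBN) only (all genes 7.2%). Depth differed in the same direction, with 0.634 against 0.367 background fragments per base, and its part in these 4 was not tested.

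**Figure D5:**
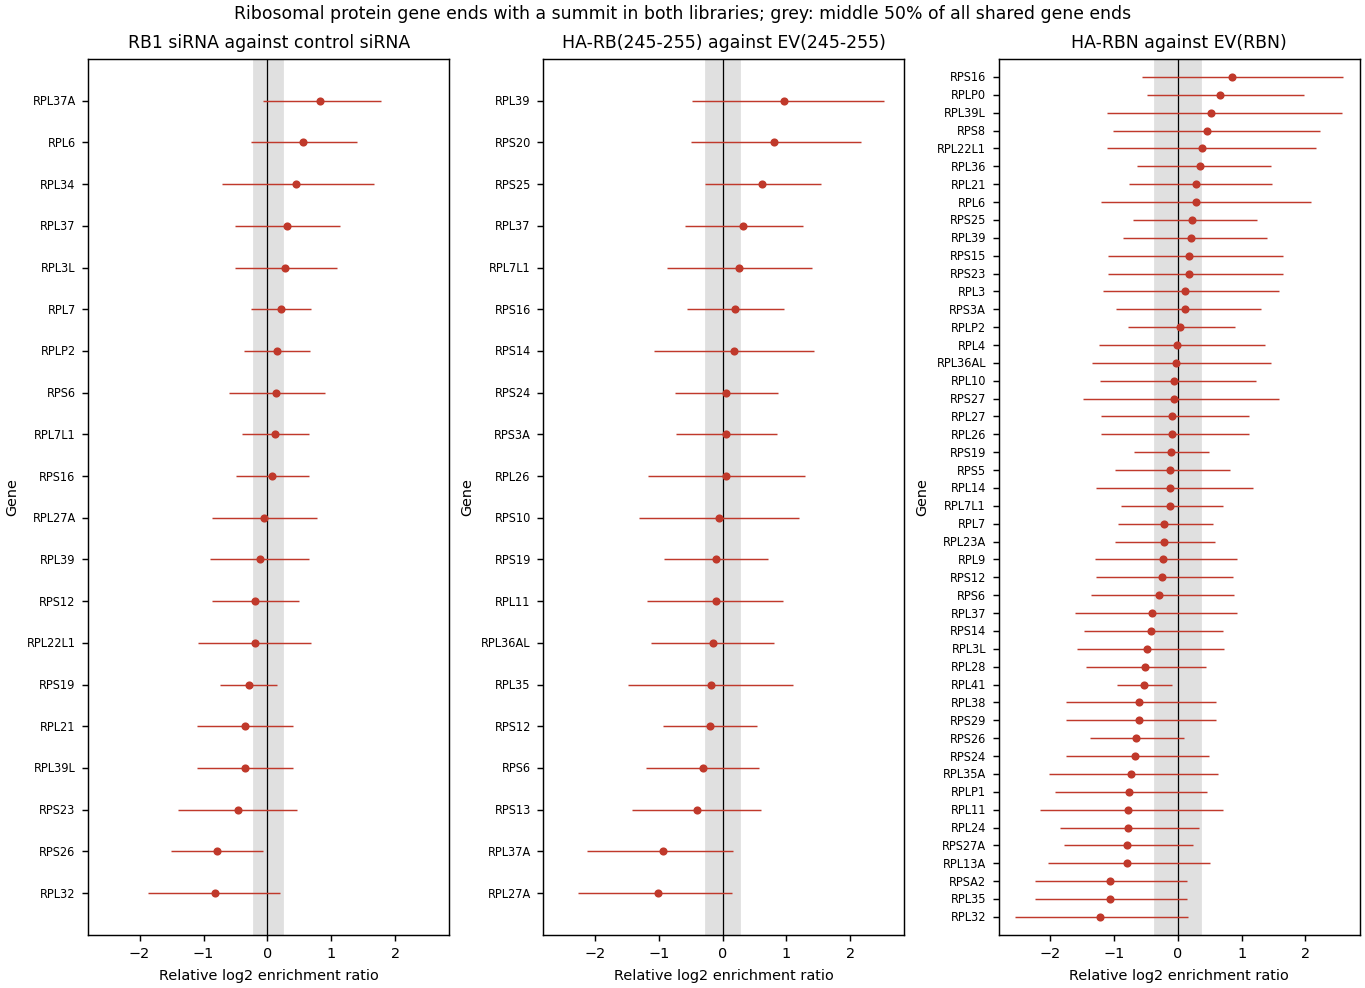
Log2 enrichment ratio of each shared ribosomal protein gene end relative to all shared gene ends (points, with exact 95% counting intervals) in the siRNA, 245-255 and RBN pairs, with the middle 50% of all shared gene ends in grey. In each pair 1 shared gene is not drawn. Most intervals cross 0, and of all shared members 34 of 49 lie left of it in the RBN pair, against 10 of 21 in each of the others.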

How the data were processed

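Peak lists of 6 libraries were analysed. No values of the 4 IgG libraries entered. The submitters' processing notes name MACS2 2.1.0, Bowtie 1.1.2, Trimmomatic 0.33 and bcl2fastq 2.17 and build hg38, without roles. Caller settings and sequencing depth were not given in the sources used here. Each deposited list, which the authors made per library and not on pooled samples, holds a score, a fold enrichment (a ratio of summit signal to local background), the −log10 p and −log10 q, and the summit's distance from the peak start. The lists hold 20718, 33803, 74193, 92115, 156155 and 242130 peaks on chromosomes 1-22 and X.

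Fragment numbers were computed from the deposited fold and −log10 p, taken as (pileup plus 1) over (background plus 1) and a Poisson tail. They were solved for at least 99.95% of the peaks of each list. A single number fitted for 96.6%, 96.5%, 99.1%, 99.48%, 100% and 99.9% of the solved peaks, and otherwise the lowest was taken. On simulated peaks 99.6% to 100% of the numbers were recovered exactly. Those peaks were made with the same formulas, so this checks the solving and not whether the deposited values follow the formulas. Read duplicates cannot be seen, so intervals cover counting error only. The replicates needed for a test are lacking, and no p-value was computed.

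Genes were RefSeq protein-coding genes (GRCh38.p14). Python 3.11.15, numpy 2.4.6, pandas 2.3.3, scipy 1.17.1 and matplotlib 3.10.9 were used. Named genes were RPS6, the stalk and MDM2-binding genes, RPSA, RPS24, the paralogs, the 10 highest of those in all 6 libraries by mean rank, those in at most 1 library, those in 1 library of a pair, and the 5 highest and 5 lowest ratios per pair. Others were named for position, role or sequence after their values were seen. A gene counted among the members is not reported here by name. Members and lists were chosen with earlier results of these data known. Other windows, fragment minimums, peak limits, list lengths and centrings were tried.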

Additional observations from a re-analysis of the deposited data

How the results depend on the processing

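Of 117 recomputed values, 74 stayed within the limits set around the main value and 43 did not. For counts the limit was a fixed ratio to the main count, and for medians and motif shares an interval. Counts at start ends only were out of 69 members, and those without paralogs out of 78. The peak limit mattered most. With −log10 q of at least 5, members with a gene end summit numbered 0 in each of the 4 lists with an IgG partner, 20 in EV(RBN) and 54 in HA-RBN, and with fold enrichment of at least 5 they numbered 0, 0, 0, 0, 31 and 47. All genes stood at 0.406%, 0.200%, 0.215%, 0.370%, 8.38% and 30.2% at that q, and at 0.145%, 0.225%, 0.275%, 0.391%, 11.7% and 29.1% at that fold. Intervals in place of summits gave 84, 85, 86 and 85 in the 4 lists with an IgG partner. The share over all genes was not computed for this setting. The interval widths of these lists sum to 2890.5, 2862.3, 2897.8 and 2810.7 Mb, so most genes would be counted. These numbers are therefore no result about the members. Start ends only gave 32 in EV(245-255), where 13 members with a summit had no known strand and 5 had it at the other end only.

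At 40 fragments the members numbered 9, 9, 1, 2, 1 and 10, and at 10 fragments 36 for EV(245-255), 39 for HA-RB(245-255), 33 for EV(RBN) and 72 for HA-RBN (all genes 26.1%, 26.0%, 12.4% and 39.1%). With each library's background as the centre, the member median was −0.42 in the 245-255 pair and 0.56 in the RBN pair, by construction of the centre. The siRNA median, 0.03, was −0.09 under that centre, −0.12 with start ends only and −0.13 without summits near another gene. It was 0.14, with 13 members above 0 and 8 below, when the highest fitting fragment number was taken for each peak. Start ends only gave −0.08 in the 245-255 pair.

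Members listed in 1 library only became 0 for RB1 siRNA, EV(245-255) and HA-RBN at −log10 q of at least 5. Judged by summits they were 13 for RB1 siRNA, 14 for the control siRNA, 16 for HA-RB(245-255), 15 for EV(245-255) and 1 for EV(RBN). Lists of the same length gave 2 for the control siRNA. In the last 100 bases before the start, motif shares were 18.8% for ETS, 0% for YY1, 37.7% for SP, 0% for E2F and 21.7% for NFY, against 8.06%, 0.525%, 42.7%, 1.32% and 21.0% of all promoters. Of the 7 YY1 matches 6 lie after the start, outside that window.

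No paired analysis was possible because each group is 1 library. Leaving out a library was not run, since a group would be empty. At 40 fragments in a pair together, 19, 10 and 17 members remained, with medians of 0.04, 0.07 and −0.19.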
